A study of Mus musculus with 22 samples.

Results

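The genes that make cholesterol in the liver, and those that sense, move and remove it, were followed in liver nuclei of mice given 2 drugs that act on xenobiotic receptors. The set was a list of 30 gene symbols chosen by name for their role, of which 29 were rows of the authors' deposited table of 24197 genes; the other symbol is an older name of Msmo1. The list does not cover every enzyme of the pathway. The mice were CD-1 (ICR), aged 7 weeks, and poly(A) RNA was taken from nuclei rather than whole tissue. The tested groups were males and females 3 h and 27 h after TCPOBOP at 3 mg/kg, an agonist of the receptor CAR (Nr1i3), and males 3 h after PCN at 50 mg/kg, an agonist of the receptor PXR (Nr1i2). Each had its own vehicle group, given DMSO in corn oil, with the same sex and time. Every library was a pool of nuclear RNA from 4 livers at 3 h or 3 livers at 27 h, with 2 pools per group for TCPOBOP and 3 pools per group for PCN. The 22 libraries thus make 10 groups and 5 comparisons.

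Cholesterol is built from acetyl-CoA through mevalonate, isoprenoid diphosphates, squalene and lanosterol. When sterols in the endoplasmic reticulum run low, SCAP carries the SREBP-2 precursor (Srebf2) to the Golgi, where it is cut, and the released factor switches on most enzymes of the pathway. INSIG proteins, made from Insig1 and Insig2, hold SCAP back when sterols are plentiful. Insig1 is itself a target of SREBP, whereas a liver transcript of Insig2 is known to be turned down by insulin. Liver is also the organ that stores cholesterol as esters, exports it in lipoproteins and turns it into bile acids.

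The promoter stretches below are shown because they belong to the 4 members with the lowest PCN ratios among those with a promoter in the reference table, and to Insig2, which moved the other way. Sequences are from RefSeq on build GRCm38.p6, 5′ to 3′ on the gene's strand, and cover 100 bases from -150 to -51 relative to the annotated start site, for Insig2 the first of its start sites in the table. Capitals mark an NF-Y box (CCAAT on either strand) or an E-box (CACGTG). The stretches lie at chr9:42264351-42264450 (minus strand, Sc5d), chr5:28071262-28071361 (plus, Insig1), chr8:122443473-122443572 (minus, Mvd), chr10:76531455-76531554 (plus, Lss) and chr1:121332640-121332739 (minus, Insig2).
Sc5d: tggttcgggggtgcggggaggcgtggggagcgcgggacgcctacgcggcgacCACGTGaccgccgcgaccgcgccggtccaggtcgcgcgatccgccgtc
Insig1: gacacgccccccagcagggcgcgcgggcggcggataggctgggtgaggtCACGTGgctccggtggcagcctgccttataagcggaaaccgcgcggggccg
Mvd: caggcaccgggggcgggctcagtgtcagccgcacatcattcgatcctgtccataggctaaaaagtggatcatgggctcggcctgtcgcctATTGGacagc
Lss: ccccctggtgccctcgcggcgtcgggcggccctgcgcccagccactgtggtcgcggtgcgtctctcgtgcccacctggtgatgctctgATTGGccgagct
Insig2: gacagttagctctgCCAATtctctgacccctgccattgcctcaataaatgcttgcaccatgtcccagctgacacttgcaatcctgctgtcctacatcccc

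Of the 29 members, 23 had a window in that table, which runs from 250 bases before to 50 bases after a start site. An NF-Y box was present in 20 of the 23, against 41.1% of all 27025 genes in the table. An E-box was present in 6 of the 23, against 8.09% of all genes: Hsd17b7, Sc5d, Dhcr7, Insig1, Scap and Abca1. A sterol response element spelled TCACNCCAC was present in Hmgcs1 alone, with its first base at -137, against 1.44% of all genes. The E-boxes of Sc5d and Insig1 began at -98 and -101. Among the 12 members with a window that PCN lowered, 11 held an NF-Y box and 4 an E-box; among the 11 others, 9 held an NF-Y box and 2 an E-box. These are matches of letters, listed as a description.

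Each group has a single mean FPKM in the authors' deposited table (fragments scaled to gene length and to library size), and each comparison a ratio of treated over vehicle and an adjusted p-value, with nothing on the spread between pools. Calls, raised or lowered, needed an adjusted p below 0.05 in the authors' deposited table and at least 1 FPKM as the mean of treated and vehicle. TCPOBOP and vehicle pools held an estimated 25400000 to 46700000 fragments, and the PCN set 19000000 to 31900000, so that a single fragment on 1 kb of gene came to between 0.0314 and 0.0525 FPKM in the PCN set. In mm9 the files place Sc5d at chr9:42062260-42072383, Insig1 at chr5:28397952-28405202, Insig2 at chr1:123200930-123229166, Idi1 at chr13:8884852-8891642 and Cyp46a1 at chr12:109572591-109600444, each the whole span of the gene. The known drug-response genes Cyp2b10, Cyp3a11 and Cyp2c55 rose in all 5 comparisons of the authors' deposited table. Cyp2b10 rose 31.1-fold after PCN and 49.1-fold to 138-fold after TCPOBOP in the authors' deposited table. Over all genes past 1 FPKM the median log2 ratio lay between -0.02 and 0.04, but in the PCN comparison the ratios ran 0.17 log2 units above the quotients of the printed FPKM means. PCN means divided by vehicle means thus come out lower than the ratio beside them, and folds below are the authors' ratios.

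PCN lowered 16 of the 28 members past 1 FPKM in the authors' deposited table and raised 2. That is 57.1% lowered, against 8.91% of all 8538 genes tested, and 7.14% raised, against 13.1% of all genes. After 27 h of TCPOBOP, males had 10 members raised and 2 lowered in the authors' deposited table, against 8.25% and 7.60% of all genes. Females at 27 h had 3 raised and 2 lowered, against 6.75% and 5.96% of all genes in the authors' deposited table. At 3 h TCPOBOP raised 1 member in males and lowered none, against 1.29% and 0.474% of all genes in the authors' deposited table; the smallest adjusted p of the 27 uncalled members was 0.296 (edgeR, per the legend of the table). In females at 3 h it raised 1 and lowered 1, against 2.62% and 1.83% of all genes in the authors' deposited table. The median log2 ratio of the members was -0.58 after PCN, 0.20 and -0.09 after 27 h of TCPOBOP in males and females, and 0.12 and -0.16 after 3 h. Because a library is bulk RNA of nuclei from all liver cells, fewer cells of a type and less RNA per cell cannot be told apart.

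**Figure D1:**
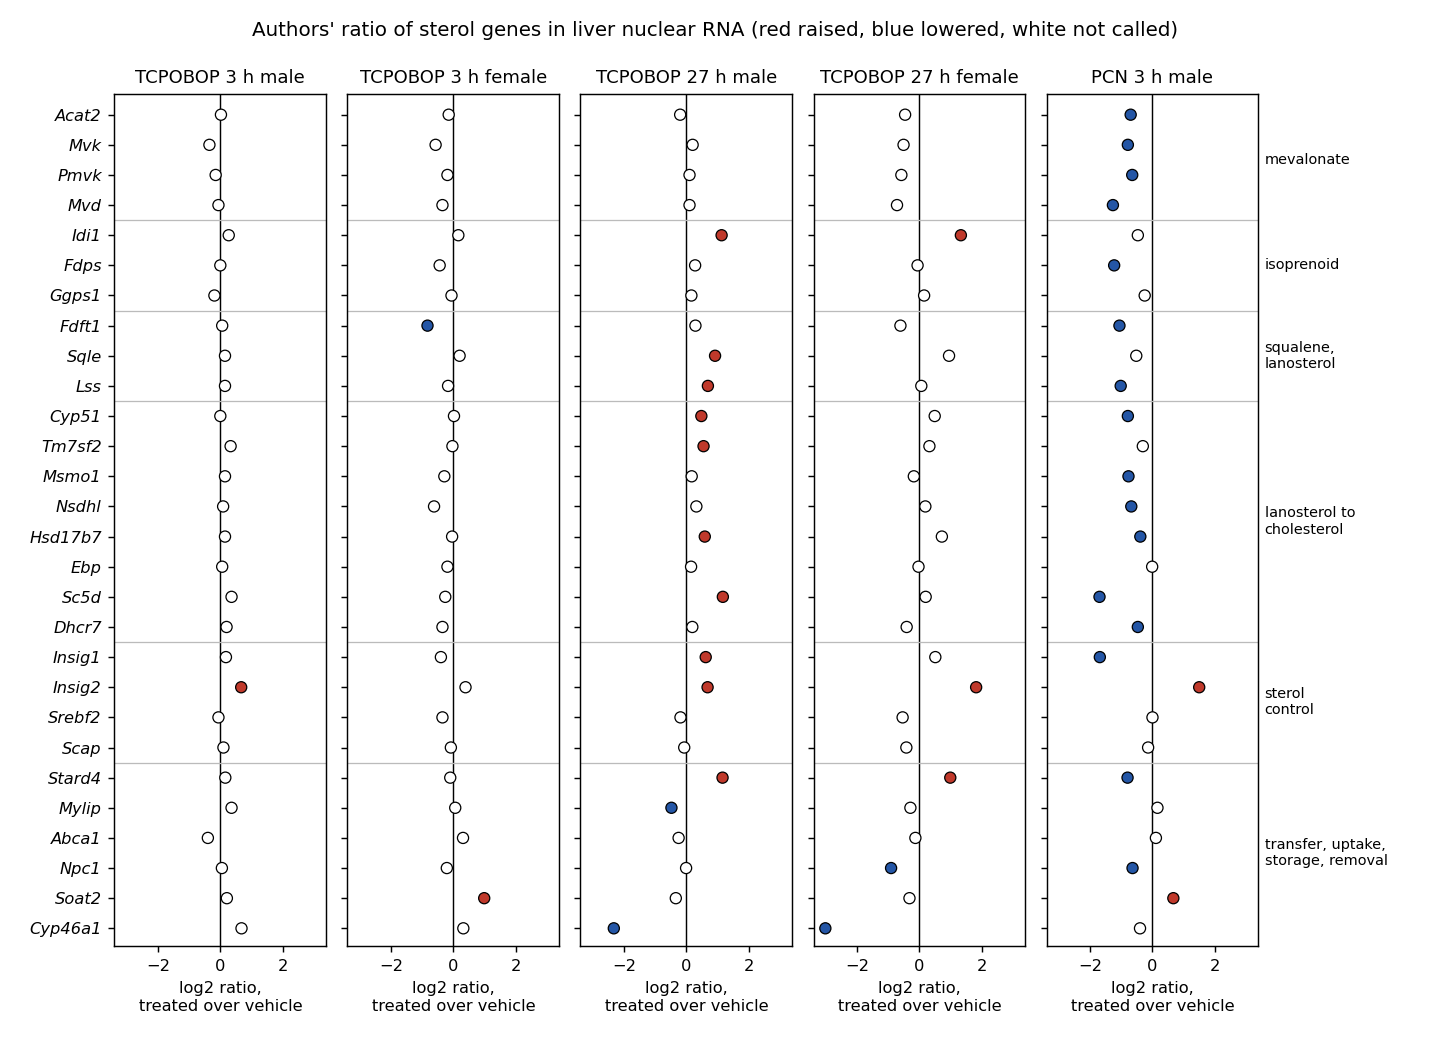
Log2 ratio of treated over vehicle in the authors' deposited table for the 28 members past 1 FPKM, in pathway order from top to bottom, with 1 panel per comparison; red points were raised, blue points lowered and white points not called. In the PCN panel 16 points are blue and Insig2 and Soat2 are red, whereas in the panel of males 27 h after TCPOBOP 10 points are red and Cyp46a1 stands farthest to the left.

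In males 3 h after PCN all 4 mevalonate enzymes past 1 FPKM fell. Mvd, which makes isopentenyl diphosphate, averaged 0.841 FPKM in PCN pools and 2.30 FPKM in vehicle pools, 2.41-fold lower (adjusted p = 8.41e-07 in the authors' deposited table). Acat2, the thiolase of the first step, averaged 1.84 FPKM after PCN and 3.41 FPKM after vehicle, 1.63-fold lower (adjusted p = 3.22e-05 in the authors' deposited table). The kinases that act before Mvd moved by similar sizes. Mvk averaged 0.871 FPKM after PCN and 1.66 FPKM after vehicle, 1.73-fold lower in the authors' deposited table (adjusted p = 0.0141). Pmvk averaged 1.65 FPKM after PCN and 2.85 FPKM after vehicle, 1.57-fold lower in the authors' deposited table (adjusted p = 0.0122). Hmgcs1, the synthase before the mevalonate step, is placed by the files on 2 stretches of unplaced chromosome 13 sequence of mm9 and is listed at 0 in all 10 groups, so nothing can be said of it.

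Of the isoprenoid enzymes, Fdps, which makes farnesyl diphosphate, fell. It averaged 3.87 FPKM in PCN pools and 10.3 FPKM in vehicle pools, 2.35-fold lower (adjusted p = 3.76e-07 in the authors' deposited table). The isomerase Idi1 did not pass the test, with 4.86 FPKM after PCN and 7.60 FPKM after vehicle (ratio 0.724, adjusted p = 0.0896 in the authors' deposited table). Ggps1, which leads to the non-sterol branch, had a ratio of 0.840 in the authors' deposited table (adjusted p = 0.470). At the entry to sterols, Fdft1 (squalene synthase) averaged 1.37 FPKM after PCN and 3.17 FPKM after vehicle, 2.08-fold lower (adjusted p = 2.76e-09 in the authors' deposited table). Lss, which closes the ring to lanosterol, averaged 0.971 FPKM after PCN and 2.22 FPKM after vehicle, 2.02-fold lower (adjusted p = 2.39e-05 in the authors' deposited table). Sqle, the epoxidase between them, had 1.19 FPKM after PCN and 1.94 FPKM after vehicle and was not called (adjusted p = 0.211 in the authors' deposited table).

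From lanosterol to cholesterol 6 of 8 enzymes fell after PCN. Sc5d, the sterol desaturase that acts on lathosterol, had the lowest ratio of any member, with 3.79 FPKM in PCN pools and 13.9 FPKM in vehicle pools, 3.26-fold lower (adjusted p = 3.89e-17 in the authors' deposited table). Cyp51, the lanosterol demethylase, averaged 0.908 FPKM after PCN and 1.79 FPKM after vehicle, 1.73-fold lower (adjusted p = 0.00315 in the authors' deposited table). Msmo1, Nsdhl and Hsd17b7 act one after another to strip methyl groups from the ring. Msmo1 averaged 3.47 FPKM after PCN and 6.74 FPKM after vehicle, 1.71-fold lower (adjusted p = 2.82e-04 in the authors' deposited table). Nsdhl averaged 1.00 FPKM after PCN and 1.85 FPKM after vehicle, 1.60-fold lower (adjusted p = 0.00463 in the authors' deposited table). Hsd17b7 moved least of the 3, with 1.41 FPKM after PCN and 2.10 FPKM after vehicle, 1.31-fold lower (adjusted p = 0.0316 in the authors' deposited table). Dhcr7, the reductase of the last step, averaged 2.07 FPKM after PCN and 3.20 FPKM after vehicle, 1.38-fold lower and close to the threshold (adjusted p = 0.0463 in the authors' deposited table). PCN pools were also set against the 3 h vehicle males of the TCPOBOP set, with the median quotient over all genes taken off (centred). Dhcr7 had 2.07 FPKM after PCN and 3.47 FPKM in those vehicle males, and after centring it no longer fell (centred log2 quotient 0.11). The other 17 members called after PCN kept their direction after centring. For Soat2 this rests on the centring, with 30.6 FPKM after PCN and 31.6 FPKM in those vehicle males (centred log2 quotient 0.79). Over all genes called after PCN, 96.2% kept their direction against that vehicle, so the members were near that share. The reductase Tm7sf2 (ratio 0.808, adjusted p = 0.184) and the isomerase Ebp (ratio 0.994) were not called in the authors' deposited table. Across the 18 enzymes past 1 FPKM, 13 were lowered, none was raised and all 18 ratios were below 1, beside 44.5% of all genes with a ratio below 1 in the authors' deposited table.

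The 2 INSIG genes went in opposite directions after PCN. Insig1 averaged 6.49 FPKM in PCN pools and 23.6 FPKM in vehicle pools, 3.23-fold lower (adjusted p = 2.89e-17 in the authors' deposited table). Insig2 averaged 75.7 FPKM in PCN pools and 30.2 FPKM in vehicle pools, 2.83-fold higher (adjusted p = 2.01e-33 in the authors' deposited table). On the FPKM scale Insig2 was the most abundant member in PCN pools. Srebf2, the factor itself, had 3.17 FPKM after PCN and 3.57 FPKM after vehicle and a ratio of 1.00, and Scap, its escort, had a ratio of 0.908 in the authors' deposited table; neither was called.

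Among the genes that move, store or remove cholesterol, PCN lowered 2 and raised 1. Stard4, a soluble carrier of cholesterol between membranes, averaged 1.54 FPKM after PCN and 3.03 FPKM after vehicle, 1.74-fold lower (adjusted p = 4.24e-05 in the authors' deposited table). Npc1, which exports cholesterol from lysosomes, averaged 2.95 FPKM after PCN and 5.14 FPKM after vehicle, 1.56-fold lower (adjusted p = 3.16e-04 in the authors' deposited table). Soat2, which esterifies cholesterol for storage and lipoproteins, averaged 30.6 FPKM after PCN and 21.7 FPKM after vehicle, 1.59-fold higher (adjusted p = 1.03e-04 in the authors' deposited table). The efflux pump Abca1 (ratio 1.08), the receptor ligase Mylip (1.12) and the cholesterol hydroxylase Cyp46a1 (0.759) were not called in the authors' deposited table. Levels after PCN were low for many enzymes, and with a floor of 5 FPKM 4 lowered members remain: Fdps, Msmo1, Sc5d and Insig1 in order of the pathway. The other lowered members lie under that floor and drop out of the count without losing their call. The share of all genes lowered at that floor was not computed. The spans of Fdft1, Lss, Tm7sf2 and Npc1 overlap those of other genes (Ctsb, 4930483K19Rik, Vps51 and 3110002H16Rik). If, as labelled, the PCN libraries carry no strand, reads inside a shared stretch cannot be assigned to a gene by strand. Whether the shared stretches hold exons was not examined.

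**Figure D2:**
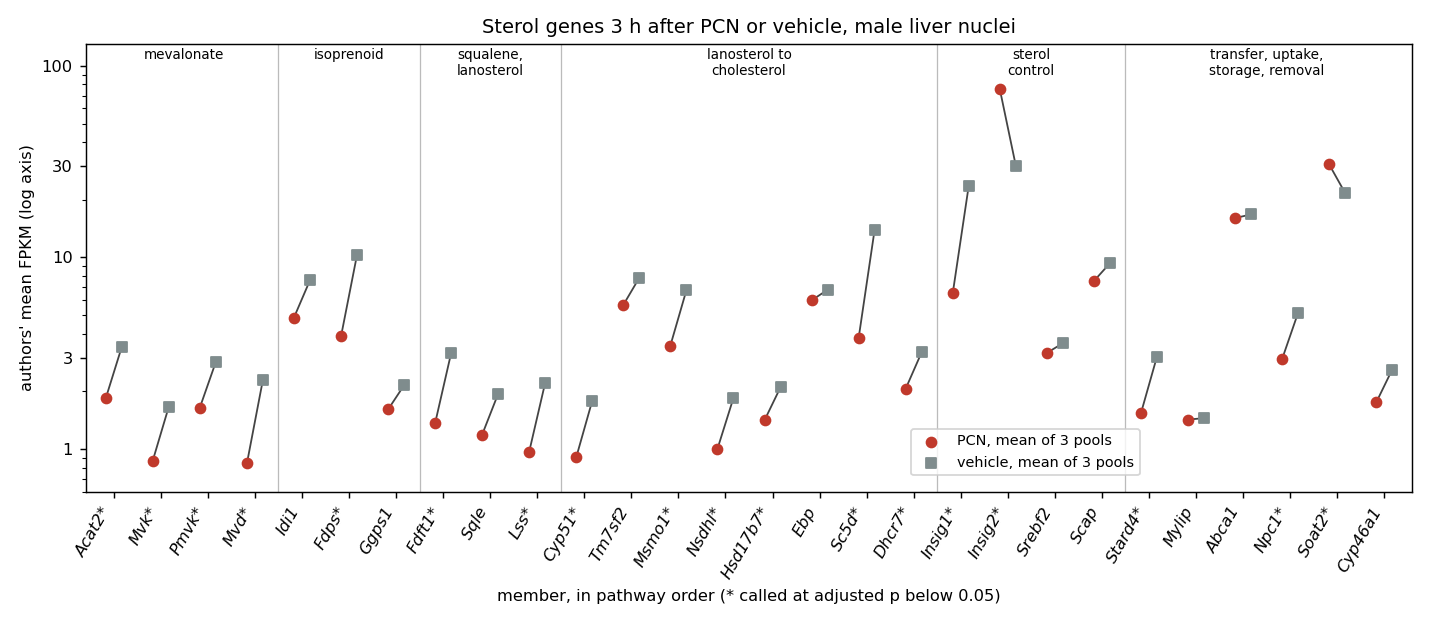
The authors' mean FPKM on a log axis for the 28 members past 1 FPKM in males 3 h after PCN (red, left point of each pair) and after vehicle (grey squares, right), in pathway order, with an asterisk for called members. The red point lies below the grey one in every enzyme from Acat2 to Dhcr7, most of all in Sc5d (3.79 against 13.9 FPKM), and above it in Insig2 and Soat2.

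In males 27 h after TCPOBOP the enzymes that rose lie from Idi1 onward, and none of the 4 mevalonate enzymes was called (log2 ratios -0.20 to 0.20 in the authors' deposited table). Sc5d averaged 91.6 FPKM in treated males and 42.3 FPKM in vehicle males at 27 h, 2.25-fold higher (adjusted p = 1.78e-12 in the authors' deposited table). Idi1 averaged 45.6 FPKM in treated males and 21.6 FPKM in vehicle males, 2.20-fold higher (adjusted p = 1.46e-11 in the authors' deposited table). Sqle averaged 8.79 FPKM in treated males and 4.81 FPKM in vehicle males, 1.89-fold higher (adjusted p = 2.47e-04 in the authors' deposited table). The remaining 4 called enzymes rose by smaller folds. Lss averaged 7.02 FPKM after TCPOBOP and 4.53 FPKM after vehicle, 1.61-fold higher (adjusted p = 0.00266 in the authors' deposited table). Hsd17b7 averaged 6.44 FPKM after TCPOBOP and 4.43 FPKM after vehicle, 1.51-fold higher (adjusted p = 0.00146 in the authors' deposited table). Tm7sf2 averaged 27.95 FPKM after TCPOBOP and 19.9 FPKM after vehicle, 1.46-fold higher (adjusted p = 0.00315 in the authors' deposited table), and its span overlaps Vps51. Cyp51 averaged 5.99 FPKM after TCPOBOP and 4.44 FPKM after vehicle, 1.4-fold higher (adjusted p = 0.0253 in the authors' deposited table). In all, 7 of 18 enzymes rose and none fell in the authors' deposited table, against 8.25% and 7.60% of all genes. Of the 18 ratios 17 were above 1, beside 51.9% of all genes with a ratio below 1. The enzyme with a ratio below 1 was Acat2 (0.870, not called).

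In the same males Insig1 and Insig2 moved the same way. Insig1 averaged 139.9 FPKM after TCPOBOP and 94.4 FPKM after vehicle, 1.54-fold higher (adjusted p = 0.00330 in the authors' deposited table). Insig2 averaged 50.7 FPKM after TCPOBOP and 32.9 FPKM after vehicle, 1.60-fold higher (adjusted p = 8.30e-04 in the authors' deposited table). Srebf2 and Scap were not called (ratios 0.874 and 0.950 in the authors' deposited table). Stard4 averaged 9.52 FPKM after TCPOBOP and 4.43 FPKM after vehicle, 2.23-fold higher (adjusted p = 7.75e-12 in the authors' deposited table). Cyp46a1, known above all as the enzyme that clears cholesterol from brain, fell to 1.02 FPKM after TCPOBOP, against 5.36 FPKM after vehicle, 5.02-fold lower (adjusted p = 6.14e-13 in the authors' deposited table). Mylip, a ubiquitin ligase that sends lipoprotein receptors to degradation, averaged 2.11 FPKM after TCPOBOP and 3.05 FPKM after vehicle, 1.39-fold lower (adjusted p = 0.0412 in the authors' deposited table). Against the 3 h vehicle of males, which TCPOBOP-treated males at 27 h were not matched to, Mylip no longer fell (centred log2 quotient 0.17) and Insig2 was level (0.01), while the other 10 called members kept their direction.

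In females 27 h after TCPOBOP Idi1, Insig2 and Stard4 rose, as they did in males, and Cyp46a1 fell, as in males. Insig2 averaged 43.6 FPKM in treated females and 12.9 FPKM in vehicle females at 27 h, 3.54-fold higher (adjusted p = 3.79e-14 in the authors' deposited table). Idi1 averaged 26.7 FPKM in treated females and 11.0 FPKM in vehicle females, 2.51-fold higher (adjusted p = 0.00295 in the authors' deposited table). Stard4 averaged 4.65 FPKM in treated females and 2.43 FPKM in vehicle females, 1.98-fold higher (adjusted p = 0.00446 in the authors' deposited table). The 2 members that fell were high in these vehicle females. Cyp46a1 averaged 2.09 FPKM in treated females and 17.7 FPKM in vehicle females, 8.13-fold lower (adjusted p = 5.55e-15 in the authors' deposited table). Npc1 averaged 8.67 FPKM in treated females and 16.97 FPKM in vehicle females, 1.88-fold lower (adjusted p = 4.83e-04 in the authors' deposited table). Other enzymes had wide ratios without a call: Sqle had a ratio of 1.93 (adjusted p = 0.126) and Mvd one of 0.607 (adjusted p = 0.244) in the authors' deposited table. All 4 mevalonate enzymes had ratios below 1 and none was called. Against the 3 h vehicle of females, Idi1 was level (26.7 FPKM in treated females at 27 h and 23.9 FPKM in vehicle females at 3 h, centred log2 quotient 0.07), and Insig2 and Npc1 changed direction: Insig2 had 43.6 FPKM in treated females at 27 h and 54.4 FPKM in vehicle females at 3 h, and Npc1 had 8.67 FPKM and 7.32 FPKM in those groups. Over all genes called in females at 27 h, 60.2% kept their direction against that other vehicle, beside 84.5% in males. Whether the sexes differed in any response was not tested, since the table has no value per pool.

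Few members moved 3 h after TCPOBOP. In males Insig2 rose to 79.9 FPKM, against 49.7 FPKM in vehicle males, 1.59-fold higher (adjusted p = 0.00329 in the authors' deposited table), and no other member was called. In females Soat2 rose to 85.4 FPKM, against 45.1 FPKM in vehicle females, 1.98-fold higher (adjusted p = 1.28e-07 in the authors' deposited table). Fdft1 fell to 3.82 FPKM in treated females, against 7.09 FPKM in vehicle females, 1.77-fold lower (adjusted p = 0.00956 in the authors' deposited table). Female Insig2 had 68.5 FPKM after TCPOBOP and 54.4 FPKM after vehicle and was not called (ratio 1.31, adjusted p = 0.538 in the authors' deposited table). None of the 16 members that PCN lowered was called in males 3 h after TCPOBOP, and 11 of the 16 had a ratio above 1 there in the authors' deposited table, beside 49.9% of all genes with a ratio above 1. Of the 748 genes lowered by PCN and past 1 FPKM there, 36.8% had a ratio above 1. The ratio was above 1 in 21 of all 28 members, so this was not particular to those that PCN lowered. With 1.29% of all genes raised and 0.474% lowered in that comparison, a count of 0 among 16 is near the background. The compounds differ in dose, library set and number of pools, and the difference between their responses was not tested.

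Side by side over the comparisons, 12 members were called in 2 or more, 11 in 1 and 6 in none. Of the 28 members past 1 FPKM in all 5 comparisons, 42.9% were called in 2 or more, against 13.7% of the 8224 genes past that floor. The 6 were Hmgcs1, Ggps1, Ebp, Srebf2, Scap and Abca1. Lss, Cyp51, Hsd17b7, Sc5d, Insig1 and Stard4 were lowered by PCN at 3 h and raised by TCPOBOP at 27 h in males, and Insig2 was raised in both; the times differ, so the values are set beside each other without a test. The opposite pattern thus held in 21.4% of the 28 members, against 0.644% of the 8224 genes, and a rise in both in 3.57% of members, against 2.19%. Taken singly, PCN lowered 57.1% of the members and TCPOBOP at 27 h raised 35.7% in males, against 8.91% and 8.25% of all genes. Such an overlap follows in part from these single shares, and a link between the 2 responses was not tested. Insig2 was called in 4 comparisons, always raised, and Stard4 in 3. Values of these genes in their remaining groups follow. Sc5d averaged 30.6 FPKM after TCPOBOP and 23.7 FPKM after vehicle in males at 3 h, 18.8 and 23.6 FPKM in females at 3 h, and 76.9 and 69.3 FPKM in females at 27 h. Insig1 averaged 41.6 FPKM after TCPOBOP and 36.4 FPKM after vehicle in males at 3 h, 33.9 and 46.8 FPKM in females at 3 h, and 178.8 and 129.9 FPKM in females at 27 h. None of these 6 pairs was called, and the Insig1 means of both female groups at 27 h lay above that of vehicle males at that time.

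The other enzymes called in 2 or more comparisons were not called in the groups given next. Lss averaged 3.26 FPKM after TCPOBOP and 2.91 FPKM after vehicle in males at 3 h, 3.52 and 4.15 FPKM in females at 3 h, and 10.02 and 9.92 FPKM in females at 27 h. Cyp51 averaged 3.14 FPKM after TCPOBOP and 3.11 FPKM after vehicle in males at 3 h, 4.37 and 4.51 FPKM in females at 3 h, and 7.18 and 5.24 FPKM in females at 27 h. Hsd17b7 averaged 4.34 FPKM after TCPOBOP and 3.88 FPKM after vehicle in males at 3 h, 3.86 and 4.15 FPKM in females at 3 h, and 6.20 and 3.89 FPKM in females at 27 h. The female Hsd17b7 ratio at 27 h was larger than that called in males but did not pass (1.65, adjusted p = 0.0975 in the authors' deposited table). Idi1 averaged 25.9 FPKM after TCPOBOP and 21.2 FPKM after vehicle in males at 3 h and 25.5 and 23.9 FPKM in females at 3 h. Fdft1 averaged 4.21 FPKM after TCPOBOP and 4.01 FPKM after vehicle in males at 3 h, 12.1 and 10.3 FPKM in males at 27 h, and 17.99 and 28.5 FPKM in females at 27 h. Fdft1 was thus lower after TCPOBOP than after vehicle in females at both times, with a call at 3 h only.

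Genes of transfer, storage and removal had these values outside their called comparisons. Stard4 averaged 5.79 FPKM after TCPOBOP and 5.13 FPKM after vehicle in males at 3 h and 3.11 and 3.497 FPKM in females at 3 h. Npc1 averaged 8.81 FPKM after TCPOBOP and 8.45 FPKM after vehicle in males at 3 h, 6.06 and 7.32 FPKM in females at 3 h, and 9.91 and 10.4 FPKM in males at 27 h. Stard4 was lower in females than in males in every pair of the TCPOBOP set. Soat2 averaged 36.9 FPKM after TCPOBOP and 31.6 FPKM after vehicle in males at 3 h, 34.7 and 45.6 FPKM in males at 27 h, and 49.2 and 64.0 FPKM in females at 27 h. Cyp46a1 averaged 4.57 FPKM after TCPOBOP and 2.83 FPKM after vehicle in males at 3 h, 6.43 and 5.37 FPKM in females at 3 h, and 1.75 FPKM after PCN and 2.599 FPKM after its vehicle. The means of Soat2 and Cyp46a1 were above vehicle at 3 h after TCPOBOP and below it at 27 h, in either sex, and the Soat2 rise in females at 3 h and the Cyp46a1 falls at 27 h passed the test.

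**Figure D3:**
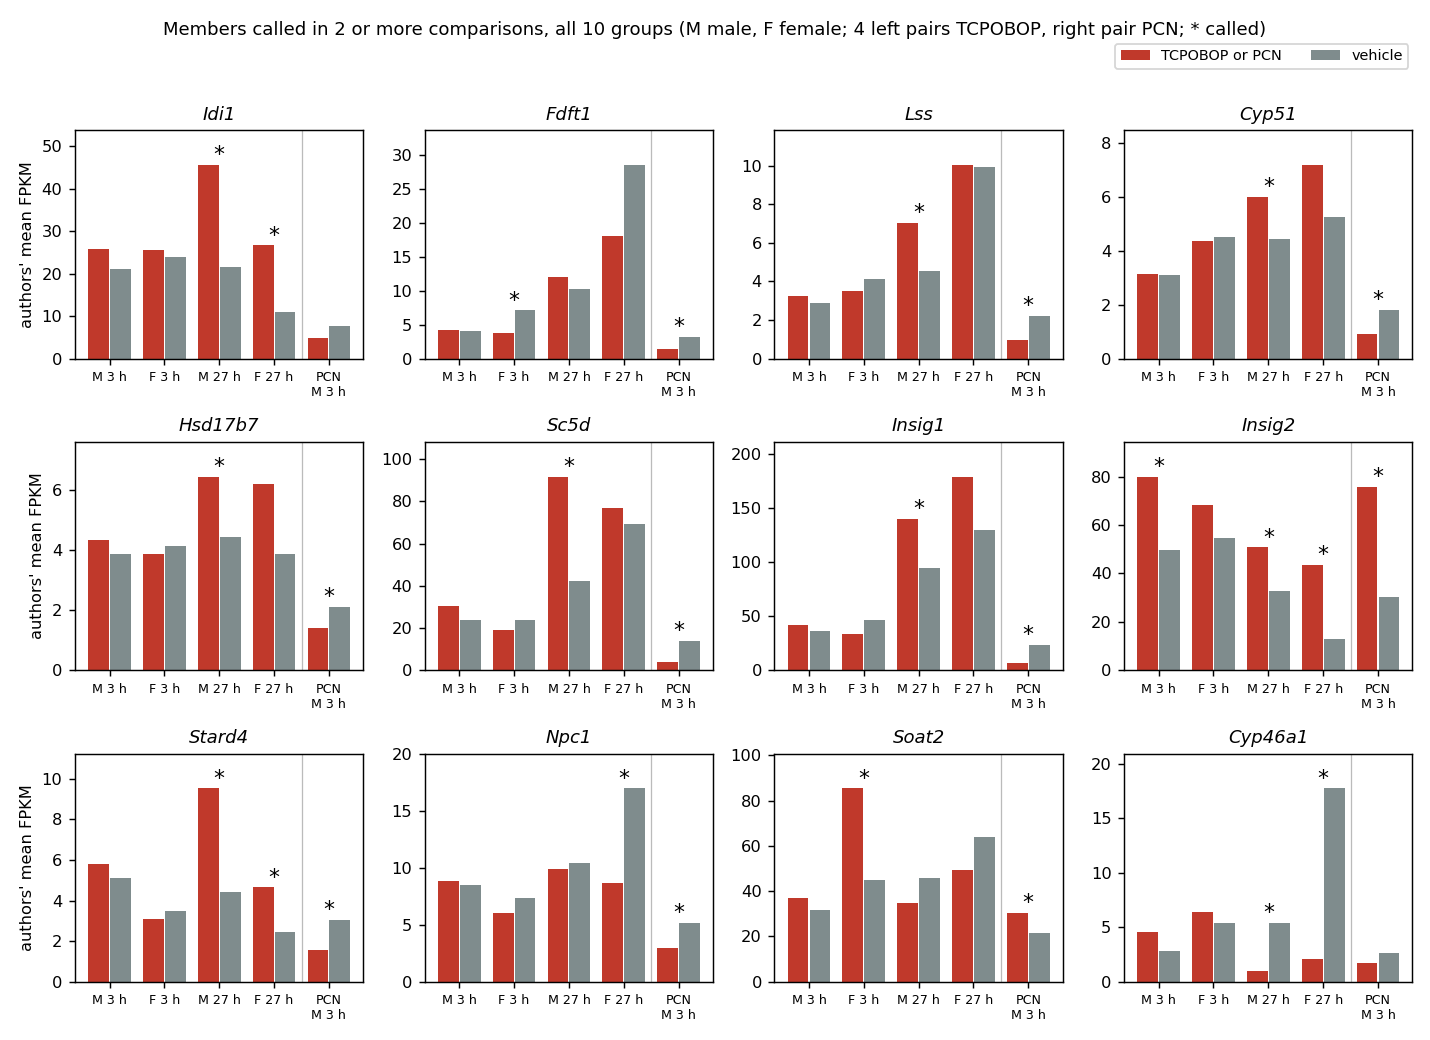
The authors' mean FPKM of the 12 members called in 2 or more comparisons, 1 panel per gene with its own linear axis from 0; red bars are treated groups and grey bars their vehicle, with the 4 TCPOBOP pairs on the left, the PCN pair on the right and an asterisk over called pairs. The grey Insig2 bars differ between groups (12.9 FPKM in females at 27 h, 54.4 FPKM in females at 3 h), whereas the red ones span 43.6 to 79.9 FPKM.

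Levels of the members were also set side by side between the vehicle groups. The measure is the log2 quotient of 2 group means, with 0.1 FPKM added to each and the median over all genes taken off, and with 1 mean per group there is no test. In females 14 of 28 members were at least 2-fold higher in the 27 h vehicle than in the 3 h vehicle, against 5.98% of all genes, and 3 were at least 2-fold lower, against 7.11%. In males 7 were at least 2-fold higher, against 0.937% of all genes, and 1 was lower, against 1.36%. The median of the members was 1.00 in females and 0.59 in males. Fdft1 had 28.5 FPKM in vehicle females at 27 h and 7.09 FPKM in those at 3 h. Mvd had 25.4 FPKM at 27 h and 6.15 FPKM at 3 h in vehicle females, and 7.82 and 2.84 FPKM in vehicle males. Insig2 went the other way, with 12.9 FPKM at 27 h and 54.4 FPKM at 3 h in vehicle females, and 32.9 and 49.7 FPKM in vehicle males. Abca1 was lower at 27 h in either sex, with 11.6 FPKM at 27 h and 21 FPKM at 3 h in vehicle females, and 14.99 and 28.4 FPKM in vehicle males.

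Set by sex, 10 of 28 members were at least 2-fold higher in female than in male vehicle livers at 27 h, against 2.62% of all genes, and 2 (Insig2 and Idi1) were at least 2-fold lower, against 4.69%. At 3 h 2 members, Sqle and Mvd, were at least 2-fold higher in females, against 1.29% of all genes, and none was lower, against 1.57%. The median centred log2 quotient of the members was 0.69 at 27 h and 0.42 at 3 h. Pmvk had 28.9 FPKM in female and 8.37 FPKM in male vehicle livers at 27 h, and 7.67 and 3.94 FPKM at 3 h. Mvk had 12.3 FPKM in female and 3.87 FPKM in male vehicle livers at 27 h. Sqle had 6.75 FPKM in female and 3.04 FPKM in male vehicle livers at 3 h, and 6.27 and 4.81 FPKM at 27 h. Vehicle pools at 27 h came from other mice than those at 3 h and held fewer livers each, so time and the make-up of the pools cannot be told apart.

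**Figure D4:**
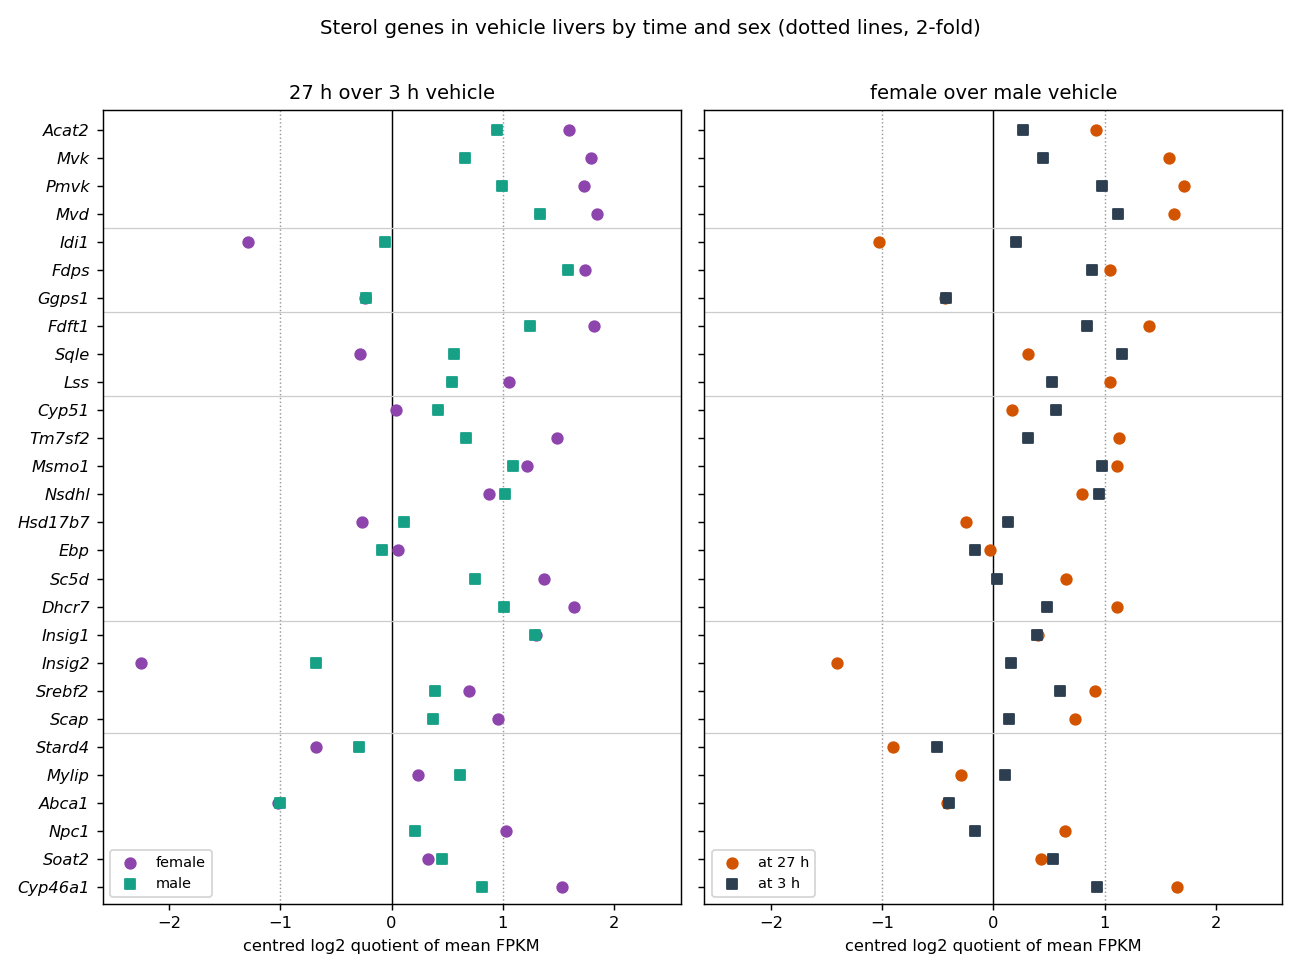
Centred log2 quotients of the authors' mean FPKM between vehicle groups for 28 members in pathway order, at left 27 h over 3 h in females (circles) and males (squares), at right female over male at 27 h (circles) and 3 h (squares); dotted lines mark 2-fold. Most enzymes lie to the right of 0 in either panel, and Insig2 in females lies farthest to the left.

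By level, the order of the members over the 5 vehicle groups began with Insig1 (median 46.8 FPKM, 23.6 to 129.9), Soat2 (45.1 FPKM, 21.7 to 64.0), Insig2 (32.9 FPKM, 12.9 to 54.4) and Fdps (27.9 FPKM, 10.3 to 105.5). The lowest values of Insig1, Soat2 and Fdps came from the vehicle group of the PCN set, so these ranges mix library sets. The ranges of these 4 overlap, and the order changes between groups: Insig2 lay above Insig1 in the vehicle males of either set at 3 h (49.7 against 36.4 FPKM, and 30.2 against 23.6 FPKM in the PCN set) and in vehicle females at 3 h (54.4 against 46.8 FPKM). Mylip (1.93 FPKM, 1.45 to 3.05) was lowest after Hmgcs1. Acat2 and Dhcr7, the first and last enzymes, had medians of 5.16 and 4.78 FPKM.

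Genes around the pathway were counted by list, among those past 1 FPKM, and after PCN are to be read against 13.1% of all genes raised and 8.91% lowered. With lists this short, 1 or 2 called genes are near that background. Of the 14 genes for sterol uptake, transfer, storage and efflux, PCN moved none by the authors' deposited table. Of the 11 for SREBP processing and sterol-regulated degradation, 1 rose and 2 fell. Srebf1, the SREBP gene of fatty acid synthesis, fell to 11.2 FPKM after PCN, against 23.96 FPKM after vehicle (ratio 0.526, adjusted p = 3.80e-05 in the authors' deposited table). The ligase Rnf145 had a ratio of 0.738 (adjusted p = 0.0150) and Erlin1, a membrane protein of the degradation machinery, one of 1.39 (adjusted p = 0.0227) in the authors' deposited table. Of 11 genes of side steps and non-sterol branches, Por, the reductase that feeds electrons to Cyp51 and Sqle, rose 7.71-fold (adjusted p = 4.36e-93) and Cyb5r3 had a ratio of 0.771 (adjusted p = 0.0448) in the authors' deposited table. Of 7 genes of oxysterol and bile acid formation, Cyp27a1, a sterol hydroxylase, rose to 233 FPKM after PCN, against 110.1 FPKM after vehicle, 2.39-fold (adjusted p = 9.36e-20 in the authors' deposited table), and Hsd3b7 had a ratio of 0.717 (adjusted p = 9.93e-04). Cyp7a1, the rate-limiting enzyme of bile acid synthesis, lay under the floor with 0.128 FPKM after PCN and 1.61 FPKM after vehicle (ratio 0.0929, adjusted p = 2.85e-30 in the authors' deposited table).

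The same lists 27 h after TCPOBOP stand beside 8.25% of all genes raised and 7.60% lowered in males, and 6.75% and 5.96% in females. With lists this short, a count of 0 or 1 is near these shares. In males 5 of 15 uptake, transfer, storage and efflux genes fell and none rose by the authors' deposited table. Abcg5, a canalicular sterol pump, fell to 18.6 FPKM in treated males, against 52.9 FPKM in vehicle males (ratio 0.366, adjusted p = 7.39e-21 in the authors' deposited table), and its partner Abcg8 fell to 5.41 FPKM, against 12.4 FPKM in vehicle males (ratio 0.455, adjusted p = 3.27e-07). The lipoprotein receptor Lrp1 had a ratio of 0.585 in these males (adjusted p = 1.33e-06 in the authors' deposited table). In females at 27 h 3 of 14 fell and 1 rose: Lrp1 (ratio 0.477, adjusted p = 1.19e-04) and Abcg5 (0.525, adjusted p = 0.00118) in the authors' deposited table were the lowest p-values. Of 9 oxysterol and bile acid genes in those females 2 fell, with Cyp8b1 at 3.74 FPKM after TCPOBOP and 17.4 FPKM after vehicle (ratio 0.223, adjusted p = 6.71e-16 in the authors' deposited table) and Cyp7a1 at 6.04 FPKM after TCPOBOP and 16.97 FPKM after vehicle (ratio 0.368, adjusted p = 8.54e-05). Srebf1 was lowered in females at 27 h as well (ratio 0.488, adjusted p = 4.13e-04 in the authors' deposited table), and Rnf139 was raised (ratio 1.63, adjusted p = 0.0200). Por rose in all 4 TCPOBOP comparisons, 2.62-fold to 5.69-fold in the authors' deposited table. In males at 27 h Acat1, the mitochondrial thiolase, had a ratio of 0.547 (adjusted p = 2.65e-05), and in females 0.535 (adjusted p = 7.82e-04), in the authors' deposited table; Pggt1b, a subunit of a protein prenyltransferase, was raised in males (ratio 1.76, adjusted p = 0.00145). Males at 27 h had 1 of 8 oxysterol and bile acid genes lowered, Cyp8b1 (ratio 0.737, adjusted p = 0.0466 in the authors' deposited table), and none of 12 in the SREBP list called. The 3 h comparisons had 1.29% of all genes raised and 0.474% lowered in males and 2.62% and 1.83% in females. Males at 3 h had Por alone called in the 4 lists, and females had Por raised and Abcg8 (ratio 0.586, adjusted p = 0.0405), Cyp8b1 (0.564, adjusted p = 0.00138) and Cyp7b1 (0.585, adjusted p = 0.0114) lowered in the authors' deposited table.

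Cell type markers were read beside these results. The 5 hepatocyte markers summed to 745 to 1528 FPKM per group, the 7 Kupffer cell markers to 31.9 to 101.7 FPKM, the 6 endothelial markers to 56.0 to 94.0 FPKM, the 6 stellate cell markers to 18.3 to 35.8 FPKM and the 4 bile duct markers to 1.13 to 1.66 FPKM. None was listed at 0 in both groups of a comparison. In the PCN comparison 3 of 5 hepatocyte markers rose (Tat 3.00-fold, Hnf4a 1.37-fold, Cps1 1.30-fold in the authors' deposited table). The other 2, Alb and Asgr1, were not called and had ratios of 0.91 and 0.96. The summed level of the 5 was 971 FPKM after PCN and 939.9 FPKM after vehicle. In addition 2 of 6 sinusoidal endothelial markers rose and 1 of 5 Kupffer cell markers, Cd5l, fell. Of all genes, 13.1% rose and 8.91% fell after PCN. In males 27 h after TCPOBOP, 1 of 6 Kupffer and 2 of 6 endothelial markers rose, by 1.37-fold to 1.85-fold in the authors' deposited table. That stands beside 8.25% of all genes raised. In females 3 h after TCPOBOP, 1 of 7 Kupffer and 1 of 6 endothelial markers rose, beside 2.62% of all genes raised. No marker was called in females at 27 h or in males at 3 h, and no stellate marker was called in any comparison. The summed Kupffer level was 73.0 FPKM in treated females at 27 h and 101.7 FPKM in vehicle females. The part of these shifts in the sterol gene values was not tested.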

How the data were processed

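Poly(A) RNA of liver nuclei was sequenced in 22 pooled libraries. The submitters' processing notes name mm9, TopHat2, HTSeq 0.6.1p1, featureCounts 1.4.6-p5 and edgeR. The authors' deposited table gives a ratio of treated over vehicle, a mean FPKM per group and an adjusted p-value for 24197 genes. Values of single libraries are not in it, hence no SD and no test was added. The adjusted p-values compare treated with vehicle pools, and variation between single mice within a pool does not enter them. Per the labels, TCPOBOP libraries were stranded and PCN libraries unstranded, although a directional kit is named for all.

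A call needed the authors' adjusted p below 0.05 and a mean of both groups of at least 1 FPKM. Members, lists, markers and motifs were chosen with earlier results of these data known. Members called in 2 or more comparisons were given in all 10 groups, those called in 1 in their 2 groups and the rest by ratio or range. Of each list at most 3 called genes per comparison were named, those with the lowest p-values. Kupffer markers matched in 7 of 8 symbols, since 1 is an older name of another. Depth came from 3335 short genes, whose lowest FPKM fell on steps of 1 fragment; the steps were tested on simulated data. Per the files, starts count from 0. Counts and medians were computed with Python 3.11.15 and pandas 2.3.3.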

Additional observations from a re-analysis of the deposited data

How the results depend on the processing

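No paired analysis was possible because the deposited table holds group means only; for the same reason fits without each replicate, with the replicate block and with other count tools were not run. Of 83 alternative values for 17 results, 72 stayed within 1.5 times of a count or 0.1 of a log2 median. A floor of 5 FPKM left 4 members lowered by PCN and 0 lowered in males at 27 h, where an adjusted p below 0.01, a ratio of at least 1.5 either way, or the same direction against the other vehicle each left 1. The lowered members lost at the higher floor lie under it, so they were not counted there. In females at 27 h, 1 of the 2 lowered members kept its direction against the other vehicle. The median log2 ratio after PCN was -0.71 as a quotient of FPKM with 0.1 added. For the vehicle of the other time, the measure was the quotient of FPKM with 0.1 added, without the median over all genes taken off. The members' median then turned to -0.47 in males at 3 h and to 0.72 in females at 27 h. It moved to -1.46 in females at 3 h and 0.91 in males at 27 h. These medians include any shift common to all genes, and the vehicle levels of the members differ between times. The checks against the other vehicle for called members and the centred quotient of FPKM were chosen after seeing the data. The estimated depths cannot be tied to named pools, and after PCN many enzymes lie near 1 FPKM.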
